A study of Mus musculus with 33 samples.

Results

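RNA levels of 9 genes of the fasting response were followed in lymphoid organs of tumor-free mice that drank nicotinamide (NAM), a form of vitamin B3. The genes are Pdk4, Angptl4, Cpt1a, Acot1, Acot2, Plin2, Ucp2, Txnip and Ppara, each held by a single row among the 56414 rows of the deposited table. The set was chosen by measured values, because Pdk4 was higher after 1 day of NAM in both libraries labelled lymph node. That contrast is therefore described for these genes without a test. All 9 genes passed the filter on low values, a mean normalised read count of at least 10, within both tissue labels.

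PPAR alpha, encoded by Ppara, is a nuclear receptor that binds fatty acids and, paired with a retinoid X receptor, switches on genes for burning fat when food is scarce. Pdk4 is among its best known targets. The PDK4 kinase phosphorylates and shuts the pyruvate dehydrogenase complex, so that less glucose carbon enters the mitochondrion and more fat is burnt. Pdk4 and Txnip are also raised by FOXO factors or by glucocorticoids in several cell types, and Txnip follows glucose through the MondoA factor.

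The mice were of the C57Bl/6 strain, and those given NAM drank it at 0.5% over 1, 3 or 14 days. No genetic change or tumor is stated for any group, and the labels give neither the age nor the sex of the mice. Polyadenylated RNA of 33 libraries was sequenced, with 5 libraries labelled spleen (S) in each of the 4 groups. The libraries labelled lymph node (LN) were 3 from untreated mice, 2 from mice after 1 day of NAM, and 4 each after 3 and 14 days. The labels do not say that libraries of a group came from separate animals, so p-values measure the spread between these libraries. Each library had 18325061 to 54830743 whole reads with the S label and 30424968 to 46733974 with the LN label.

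Of 6 tissue markers, 5 went against the labels with no overlap between them, and Madcam1 went with them. Glycam1, a mucin of lymph node venules, had normalised read counts of 108167 to 214210 in libraries labelled spleen and of 1.59 to 12.4 in those labelled lymph node. Spic, a factor of red pulp macrophages in spleen, had 774 to 1295 and 6117 to 10491, respectively, so that both genes went against the label in all 33 libraries. Madcam1, an adhesion molecule of vessels in lymph nodes and of the splenic marginal sinus, had 137 to 402 with the S label and 577 to 956 with the LN label. Markers of other cells also differed between labels or groups. The summed level of 8 adipocyte markers was 26405 to 361606 in libraries labelled spleen and 11 to 237 in those labelled lymph node. The sum of 10 pancreatic acinar markers was 126926 in LN replicate 1 at 1 day, and 628 to 1270.3 in the other libraries of that label. At 1 day, LN-labelled libraries had summed levels of 3 mesothelial markers of 539 and 712, against 359 to 459 in untreated ones, and of 6 hepatocyte markers of 96.2 to 118, against 47.5 to 79.6. At 3 and 14 days the mesothelial sums were 345 to 752 and 230 to 789. The hepatocyte sums were then 85.4 to 131 and 72.1 to 130, so these levels were not particular to 1 day. The part of these cells in the 1 day values was not tested. The sum of 8 skeletal muscle markers, a tissue rich in Pdk4, was 194 to 361 in all libraries. In bulk tissue, fewer cells of a type and less RNA per cell cannot be told apart.

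The 250 bases before the RefSeq starts of Pdk4 and Txnip are shown because their log2 levels had the highest correlation among the 9 genes over the 13 LN-labelled libraries, with r = 0.92, and 0.87 without the 2 libraries at 1 day. Both are from RefSeq, build GRCm38.p6, and run 5′ to 3′ on the strand of the gene, on the minus strand at chr6:5496279-5496528 for Pdk4 and on the plus strand at chr3:96557707-96557956 for Txnip. Capitals mark matches to motifs searched on either strand. The FOXO core was searched as GTAAACA and the CCAAT box as ATTGG. An E-box was searched as CACGTG, and an E-box-like sequence of the kind read by MondoA as CACGAG. Half-sites of nuclear receptors in general and of the glucocorticoid receptor were searched as AGGTCA and as AGAACA, respectively.
Pdk4: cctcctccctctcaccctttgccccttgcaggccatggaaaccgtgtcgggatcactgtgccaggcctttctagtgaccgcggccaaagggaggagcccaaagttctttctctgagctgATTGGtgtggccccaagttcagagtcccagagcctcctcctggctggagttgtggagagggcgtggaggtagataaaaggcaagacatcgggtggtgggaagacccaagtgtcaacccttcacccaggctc
Txnip: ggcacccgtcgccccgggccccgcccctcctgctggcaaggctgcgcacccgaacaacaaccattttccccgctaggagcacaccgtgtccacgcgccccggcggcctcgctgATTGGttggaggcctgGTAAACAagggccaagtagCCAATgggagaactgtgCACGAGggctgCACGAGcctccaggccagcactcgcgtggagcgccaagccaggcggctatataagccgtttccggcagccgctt
The Txnip window held the FOXO core at 121 bases before the start, the E-box-like sequence at 85 and at 74 bases, and CCAAT boxes at 137 and at 102 bases. Of 32851 promoter windows of this length, 3.2% held the FOXO core, 5.4% the E-box-like sequence and 33.8% a CCAAT box. The Pdk4 window held a CCAAT box at 131 bases. Among the 8 genes with a window, the general half-site was matched before the RefSeq starts of Cpt1a at 94 bases and Plin2 at 218 bases, and the glucocorticoid half-site before Acot1 at 171 bases. RefSeq starts differ from those of the gene annotation used for the positions given with each gene. The Pdk4 window overlapped the annotated gene by 32 bases, and that of Cpt1a lay wholly inside it, 720 bases from its start. The windows of Ppara and Acot1 overlapped their genes by 214 and 13 bases. Of all windows, 14.0% held the general half-site, 16.1% the glucocorticoid half-site and 6.0% the E-box. A match of letters is not a binding site, and the absence of a match applies to these letters in this window.

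Pdk4 lies on chromosome 6 from 5483351 to 5496310 of mm10, on the minus strand. In LN-labelled libraries, its normalised read counts were 310.3, 244 and 602 in the untreated libraries. They were 2155 and 3006 at 1 day of NAM. At 3 days they were 518, 606, 502 and 826, and at 14 days 1224, 702, 529 and 617. Both libraries at 1 day were above the 11 others of that label, and the ranges of the other groups overlapped. The means were 385 ± 191 (SD, n = 3) in untreated and 2580.4 ± 602 (SD, n = 2) at 1 day, a log2 fold change of 2.83 on the scale of log2(normalised count + 1) used throughout, which understates the change of genes with few reads.

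**Figure D1:**
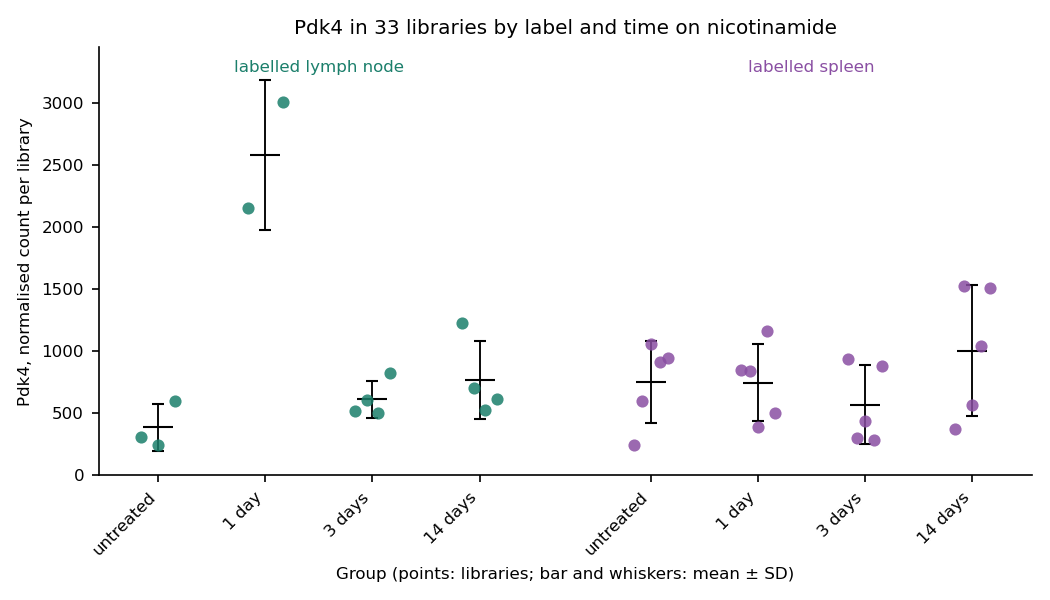
Normalised read count of Pdk4 (y axis, linear) in each of 33 libraries, by tissue label and time on NAM (x axis), with points for libraries and bars for the mean ± SD. The LN-labelled libraries at 1 day, at 2155 and 3006, lie above every other library, and the groups labelled spleen overlap.

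In that contrast, used to choose the set, Pdk4 had the change of rank 27 among 18215 genes tested. Pancreatic enzyme genes, abundant in replicate 1 at 1 day, held the top of the order, with Cela2a at a log2 fold change of 7.23. Replicate 2 had an acinar marker sum of 1093, against 1198 to 1270.3 in untreated libraries. Without replicate 1, which leaves 1 library at 1 day, the Pdk4 change was 3.07. The part of pancreatic RNA in the Pdk4 values was not tested. Both 1 day libraries were above all untreated ones for Pdk4, Angptl4, Acot1, Plin2 and Txnip, 5 of 9 members, beside 17.1% of all genes tested. Both were below for Ppara, 1 of 9, beside 15.5% of all genes. The median log2 fold change of the 9 members was 0.22. Because this contrast chose the set, nothing is read from these counts.

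At 3 and 14 days in LN-labelled libraries, Pdk4 had mean counts of 613 ± 149 (SD, n = 4) and 768 ± 312 (SD, n = 4). All comparisons with untreated libraries of this label share those 3 with the contrast that chose the genes. The log2 fold change was 0.75 ± 0.28 (SE, adjusted p = 0.226) at 3 days and 1.03 ± 0.28 (SE, adjusted p = 0.109) at 14 days, by limma over all genes. Erythroid RNA moved with the same groups, with a summed level of 8 markers of 21240.3 to 31937 in untreated libraries, 14427 to 20693 after 1 day, 2263 to 12039 after 3 days and 9390 to 14160 after 14. Its part in the result was not tested. Without untreated replicate 3, which had the highest untreated count of 602, the 14 day change was 1.40 with an adjusted p of 0.0314. It was the only 1 of 7 fits without 1 library that called Pdk4 at 14 days. Between 14 and 3 days, which involves no untreated library, the change was 0.28 ± 0.26 (SE, adjusted p = 0.93).

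In S-labelled libraries, Pdk4 counts spread widely within each group. The lowest, median and highest were 244, 912 and 1054 in untreated libraries. They were 387, 840.4 and 1159.7 at 1 day, 284, 435 and 936 at 3 days, and 376, 1041 and 1523 at 14 days. All 4 groups overlapped. Against untreated, Pdk4 had log2 fold changes of 0.05, −0.42 and 0.39 at 1, 3 and 14 days, each with an SE of 0.46, and the lowest adjusted p was 0.652. Its 95% interval at 1 day ran from −0.91 to 1.02. Adding the adipocyte score of the libraries as a covariate turned the 1 day change to −0.64 (limma, adjusted p = 0.158).

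Txnip encodes an arrestin-like protein that binds thioredoxin and lowers glucose uptake. It lies on chromosome 3 from 96557957 to 96561857 of mm10, on the plus strand. In LN-labelled libraries its counts were 6492, 6275 and 7212 in untreated libraries, and 11498 and 11434 at 1 day. At 3 days they were 7401, 7878, 7959 and 8888, and at 14 days 11314, 7829, 8884 and 7506. All 8 libraries at 3 and 14 days were above all 3 untreated ones. Changes on the log2 scale were 0.79 at 1 day (described), 0.27 ± 0.11 (SE, adjusted p = 0.257) at 3 days and 0.40 ± 0.11 (SE, adjusted p = 0.101) at 14 days by limma.

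Txnip had the opposite sign in S-labelled libraries at 1 and 3 days. Its counts there had a lowest, median and highest value of 7448, 9824 and 10709 in untreated libraries, of 6633, 8291 and 8662 at 1 day, of 6804, 7100.4 and 10138 at 3 days, and of 8576, 9211 and 10585 at 14 days. Changes on the log2 scale were −0.28 ± 0.11 (SE, adjusted p = 0.0984) at 1 day, −0.33 ± 0.11 (SE, adjusted p = 0.0909) at 3 days and 0.02 ± 0.11 (SE, adjusted p = 1) at 14 days by limma. At 3 days, replicate 1 held the highest count, 10138, and without it the change was −0.44 (limma, adjusted p = 0.00488). Without untreated replicate 2, the library with the lowest untreated count, the adjusted p was 0.0317 at 1 day. Txnip was called in 1 of 10 fits without 1 library at 1 day and in 2 of 10 at 3 days. The test of the difference between labels at 3 days gave −0.60 ± 0.17 (SE, adjusted p = 0.0928, limma), S minus LN. That difference was −0.71 (limma, adjusted p = 0.00651) without the S-labelled library at 10138, the only 1 of 17 fits without 1 library that called it. Such fits called 33 to 883 of all genes, against 126 with every library. Reads of Txnip could include those of Gm15441, an RNA on the opposite strand whose exons overlap it and whose row had 9.29 to 80.1 normalised counts per library, since strand use in the counting is not given in the sources used here.

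Angptl4 encodes a secreted inhibitor of lipoprotein lipase, the enzyme that frees fatty acids from circulating fat. It lies on chromosome 17 from 33773750 to 33781576 of mm10. Counts were 244, 280.1 and 466 in untreated libraries labelled lymph node, and 485 and 695 at 1 day. At 3 days they were 267, 310.4, 308 and 402, and at 14 days 739, 308, 561 and 298. The 1 day libraries were above all untreated and 3 day libraries but not above those at 14 days. In S-labelled libraries, the 3 day libraries had 331, 376 and 645 as lowest, median and highest, against 345, 1188 and 1659 in untreated. Its log2 fold change at 3 days was −0.97 ± 0.37 (SE, adjusted p = 0.131) by limma, and the ranges overlapped. It was −1.30 without untreated replicate 1, with an adjusted p of 0.0452, the only 1 of 10 fits without 1 library that called it.

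Ppara, on chromosome 15 from 85735562 to 85806851 of mm10, had the lowest counts of the 9 genes. In LN-labelled libraries its counts were 24.5, 24.3 and 39.8 in untreated libraries, and 19.8 and 20.1 at 1 day. They were 15.9 to 31.9 at 3 days and 9.98 to 27.7 at 14 days. In S-labelled libraries they ranged from 0 to 81.5, and 1 untreated library had 0 reads on the gene, which allows up to 3 by counting error alone. The log2 fold change at 1 day in S-labelled libraries was 1.46 with a 95% interval of −0.51 to 3.44. It was 0.57 to 1.83 with 1 library left out, and 1 of 12 other settings turned its sign. Limma called no difference between groups in the receptor's own RNA.

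Cpt1a encodes the enzyme that loads long-chain fatty acids for entry into mitochondria, and lies on chromosome 19 from 3322331 to 3385734 of mm10. In LN-labelled libraries its counts were 1996, 1975 and 2528 in untreated libraries, and 2252 and 2404 at 1 day. They were 1715, 1562, 1430.0 and 2439 at 3 days, and 2586, 2284, 2630.2 and 2525 at 14 days. Replicate 4 at 3 days stood above the other 3 libraries of its group. From 3 to 14 days the log2 fold change was 0.52 ± 0.13 (SE, adjusted p = 0.275) by limma and the ranges overlapped through that library. Without it the change was 0.68 (adjusted p = 0.0127), and the change at 3 days against untreated went from −0.30 ± 0.14 (SE, adjusted p = 0.316) to −0.46 (adjusted p = 0.0255). In each comparison it was the only fit with a call, of 8 and 7 fits without 1 library, respectively. In S-labelled libraries counts were 1617 to 3664 and all groups overlapped.

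Acot1 and Acot2 encode acyl-CoA thioesterases, of the cytosol and of mitochondria, and are neighbours on the plus strand of chromosome 12 of mm10, from 84009489 to 84018373 and from 83987861 to 83993873. Of their transcript stretches of 75 bases, the read length, 11.19% of those of Acot1 were also in Acot2 and 20.45% of those of Acot2 in Acot1, so reads may be split between them. Acot1 counts in LN-labelled libraries were 542, 442 and 596 in untreated libraries, and 601 and 661 at 1 day. They were 366, 353, 352 and 483 at 3 days, and 579, 379, 489 and 523 at 14 days. The 3 day change was −0.44 ± 0.14 (SE, adjusted p = 0.166, limma), and replicate 4 was the only library of its group to overlap the untreated range. Acot2 stayed within 664 to 883 in all 13 libraries of that label, and within 362 to 576 in all 20 of the spleen label.

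Plin2 coats lipid droplets, and lies on chromosome 4 from 86656565 to 86670059 of mm10. Its counts were 1721 to 2622 over the 13 libraries labelled lymph node. In S-labelled libraries the lowest, median and highest were 1448, 3014 and 3568 in untreated libraries and 3276, 3424 and 7993 at 1 day. The log2 fold change at 1 day was 0.72 ± 0.30 (SE, adjusted p = 0.107, limma), and 3 of 5 libraries at 1 day overlapped the untreated range. Ucp2, on chromosome 7 from 100493357 to 100502173 of mm10, encodes a carrier of the inner mitochondrial membrane abundant in leukocytes, and its exons overlap those of Dnajb13 on the opposite strand. Its counts were 22591 to 31876 in LN-labelled libraries and 19090.5 to 29358 in S-labelled libraries, with the ranges of groups overlapping within each label. Its 3 day change in LN-labelled libraries was −0.22 ± 0.10 (SE, adjusted p = 0.309, limma).

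**Figure D2:**
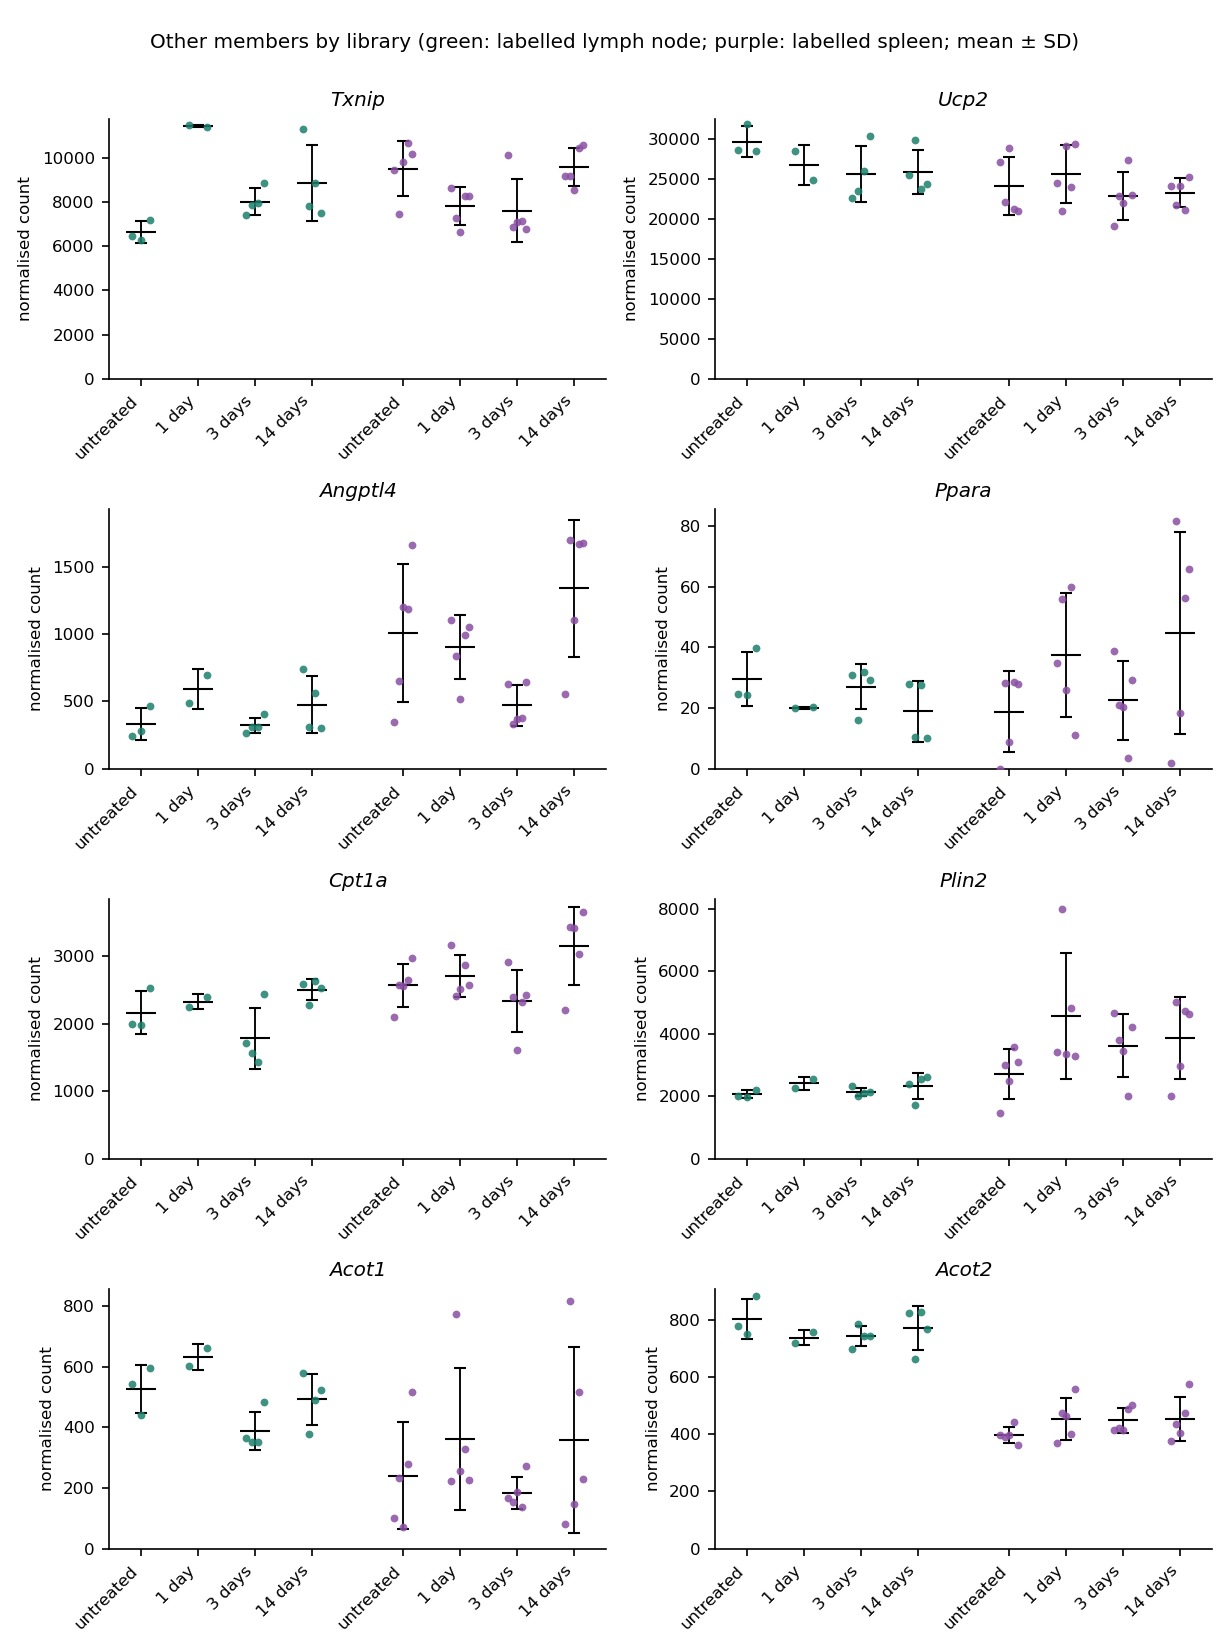
Normalised read counts (y axes, linear, from 0) of the other 8 genes in each library by group (x axes), with the mean ± SD in black, green for libraries labelled lymph node and purple for those labelled spleen. Txnip reaches 11498 and 11434 at 1 day in LN-labelled libraries, and Acot1, Plin2 and Ppara spread widely within the groups labelled spleen.

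When the groups of each label were ordered by their mean, 54 neighbouring pairs resulted over the 9 genes, and the ranges of 50 overlapped. The 4 pairs that did not overlap were all in LN-labelled libraries. They were Pdk4, Txnip and Acot1 at 1 day, the group whose values chose the set, against the next group, and Txnip at 3 days against untreated. Over all genes tested, 5.91% of such pairs did not overlap in LN-labelled libraries and 0.786% in S-labelled libraries. Nothing is read from the 3 pairs at 1 day.

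Limma called 0 of 9 members in each of the 9 comparisons tested. In S-labelled libraries the share of all genes called was 16.6% at 1 day, 5.55% at 3 days, 0% at 14 days and 10.6% between 14 days and 1 day. In LN-labelled libraries it was 1.24% at 3 days, 0.791% at 14 days and 0.011% between 14 and 3 days. For the difference between labels it was 0.735% at 3 days and 0.14% at 14 days. At 14 days in S-labelled libraries, where limma called 0 genes, 510 of 18243 had an unadjusted p under 0.05, edgeR called 0 and DESeq2 1.

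At an unadjusted p under 0.05, limma counted more members. In S-labelled libraries these were Txnip and Plin2 at 1 day, beside 30.9% of all genes, and Angptl4 and Txnip at 3 days, beside 22%. There were 0 members at 14 days, beside 2.8%, and Txnip alone between 14 days and 1 day, beside 25.7%. In LN-labelled libraries they were Acot1, Cpt1a, Txnip, Pdk4 and Ucp2 at 3 days, beside 14.8% of all genes, Txnip and Pdk4 at 14 days, beside 11.8%, and Acot1 and Cpt1a between 14 and 3 days, beside 5.84%. Txnip had such a p for the difference between labels at 3 days, beside 13.1% of all genes, and at 14 days, beside 4.85%. EdgeR called 0 members in each of these comparisons. DESeq2 called Angptl4 at 3 days in S-labelled libraries, beside 9.25% of all genes. In LN-labelled libraries it called Txnip at 14 days, beside 2.09%, and Cpt1a between 14 and 3 days, beside 0.302%, and for the difference at 3 days it called Txnip, beside 1.97%.

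**Figure D3:**
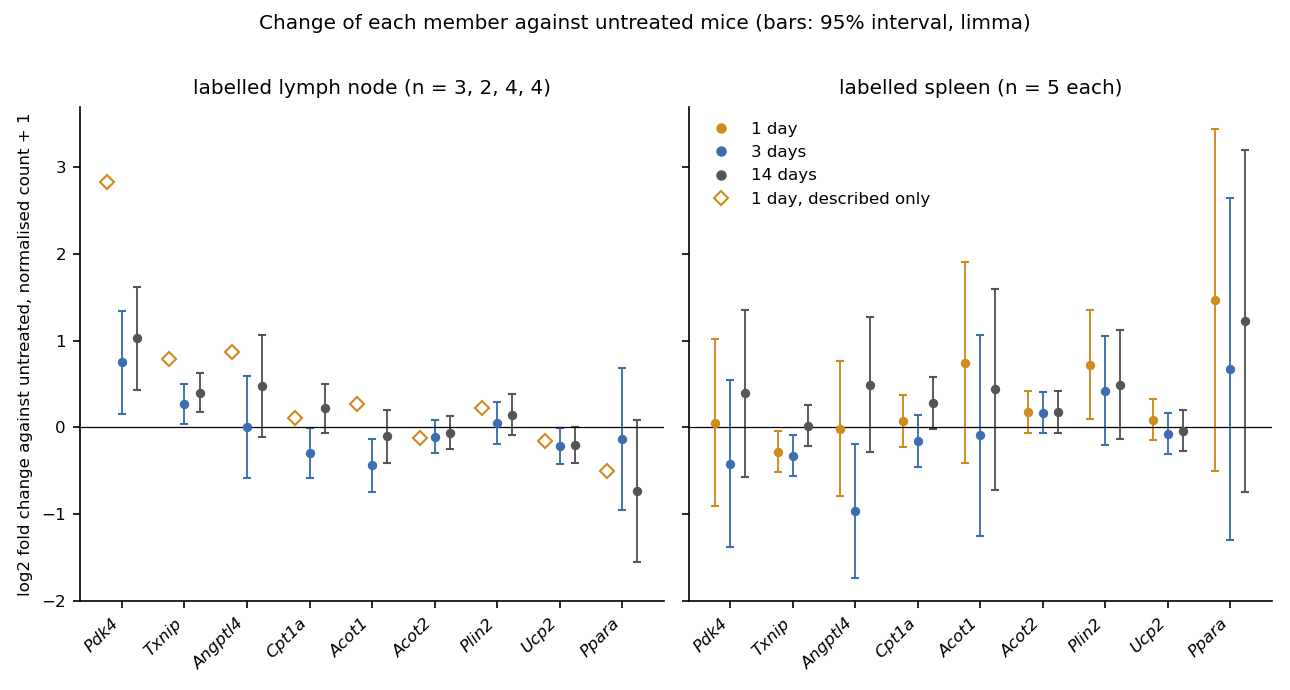
Log2 fold change of each gene against untreated mice (y axes, log2 of normalised count + 1) at 1, 3 and 14 days (colors), with 95% intervals from limma as bars. Open diamonds give the 1 day values in LN-labelled libraries, which chose the set and carry no interval. Pdk4 has the highest diamond, at 2.83, and its 3 and 14 day values in the same libraries are 0.75 and 1.03.

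The libraries labelled spleen carried varying amounts of adipocyte RNA, and several members moved with it. An adipocyte score, the mean log2 level of 8 marker genes, was compared with each of the 9 members over 20 libraries in permutation tests, two-sided, with 100000 permutations. Plin2 had the highest correlation, with r = 0.95 (p = 1e-05, the smallest the permutations can give, adjusted 4.5e-05) and rho = 0.90 (p = 1e-05, adjusted 4.5e-05). Ppara had r = 0.90 (p = 1e-05, adjusted 4.5e-05) and rho = 0.91 (p = 1e-05, adjusted 4.5e-05), and Acot1 r = 0.81 (p = 2e-05, adjusted 6e-05) and rho = 0.78 (p = 0.00011, adjusted 0.00033).

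Pdk4 also rose with the score, with r = 0.65 (permutation p = 0.00176, adjusted 0.00396) and rho = 0.66 (p = 0.0018, adjusted 0.00405). Ucp2 fell with it, with r = −0.59 (permutation p = 0.00559, adjusted 0.0101) and rho = −0.61 (p = 0.00564, adjusted 0.0102). Angptl4 had r = 0.42 (permutation p = 0.0678, adjusted 0.102) and rho = 0.40 (p = 0.0808, adjusted 0.104). Cpt1a had r = 0.31 (permutation p = 0.185, adjusted 0.238) and rho = 0.43 (p = 0.0615, adjusted 0.0923), and Acot2 r = 0.29 (p = 0.218, adjusted 0.245) and rho = 0.32 (p = 0.164, adjusted 0.184). Txnip had r = −0.08 (permutation p = 0.731, adjusted 0.731) and rho = 0.09 (p = 0.715, adjusted 0.715).

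Of the 9 members, 5 had an adjusted p under 0.05 for r, and among all 18243 genes tested 22.8% had an r of at least 0.59 in size. Without the 2 libraries farthest from the median score, r was 0.91 for Plin2, 0.91 for Ppara, 0.75 for Acot1, 0.61 for Pdk4 and −0.53 for Ucp2. Taken as deviations from the group means, r was 0.96, 0.90, 0.82, 0.76 and −0.79 in the same order. The labels name no batch. The part of adipocyte RNA in the levels of these genes was not tested beyond the fit with the score as a covariate. In that fit Ucp2 was called higher at 1 day (limma, adjusted p = 0.0334), where the fit without the score gave 0.09 ± 0.11 (SE, adjusted p = 0.642).

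**Figure D4:**
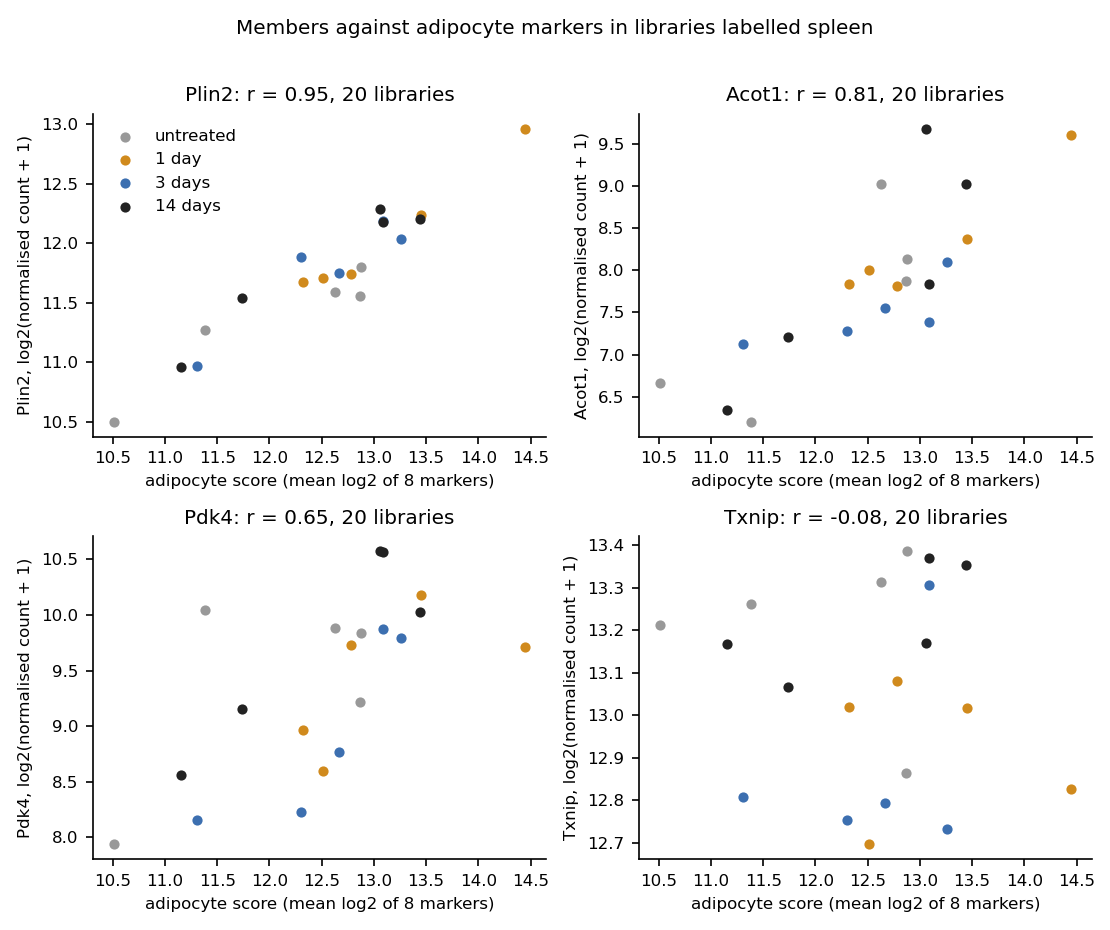
Level of Plin2, Acot1, Pdk4 and Txnip (y axes, log2 of normalised count + 1) against the adipocyte score (x axes, mean log2 level of 8 markers) in the 20 libraries labelled spleen, colored by time on NAM. Plin2 follows the score with r = 0.95 and Txnip with r = −0.08.

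Across labels, the untreated Pdk4 level was 750.0 ± 330.4 (SD, n = 5) in S-labelled libraries and 385 ± 191 (SD, n = 3) in LN-labelled libraries. The ranges overlapped. Acot2 and Txnip were the members whose untreated ranges did not overlap. Acot2 was lower in S-labelled libraries, by a log2 difference of −1.01 as deposited and −0.87 after a scaling common to all libraries. Txnip was higher by 0.51 and 0.65, respectively. The table was scaled separately within the labels, so these are descriptions.

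The other pyruvate dehydrogenase kinases were Pdk1, Pdk2 and Pdk3. At 1 day in LN-labelled libraries, in the contrast that chose Pdk4, the log2 fold changes were −0.07 for Pdk1, −0.30 for Pdk2 and 0.02 for Pdk3. In the 9 tested comparisons the lowest adjusted p among them was 0.067 (limma), for Pdk1 at −0.26 at 3 days in S-labelled libraries. Of 13 genes of the pyruvate dehydrogenase complex and its control, 2 rose at 1 day in S-labelled libraries, beside 8.56% of all genes called higher. EdgeR called 4, DESeq2 5 and library weights 1, beside 16.3%, 18.5% and 21.6% of all genes in either direction. The adipocyte covariate called 3 higher and 1 lower, beside 21.3% in either direction. The 2 called by limma were Dlat, a subunit of the complex, and Mpc2, of the mitochondrial pyruvate carrier, named after their values were seen. With 1 library left out, the call of Dlat was lost in 5 of 10 fits and that of Mpc2 in 3, with adjusted p up to 0.0928 and 0.0685. Neither was called without untreated replicate 1 or without replicate 2 or 4 at 1 day.

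Among PPAR receptors and their coregulators, Ppard, the most widely expressed PPAR, fell at 1 and 3 days in S-labelled libraries. Its log2 fold change was −0.35 ± 0.08 (SE, adjusted p = 0.00445, limma) at 1 day and −0.31 ± 0.08 (SE, adjusted p = 0.026) at 3 days, and it rose by 0.27 ± 0.08 (SE, adjusted p = 0.029) from 1 to 14 days. The calls of Ppard were lost in 7 of 10 fits without 1 library at 3 days and in 5 of 10 between 1 and 14 days, and in 0 of 10 at 1 day. Of 12 genes in the list, 2 fell at 1 day and 2 at 3 days, beside 8.05% and 2.74% of all genes called lower. At 3 days library weights called 7 of the 12 and the adipocyte covariate 3 lower, beside 25.9% and 12.4% of all genes in either direction. Pparg, the PPAR of adipocytes, was at 0.91 (adjusted p = 0.167) at 1 day in the same libraries, Rxra at −0.18 (adjusted p = 0.307) and Ppargc1a at −0.01 (adjusted p = 0.99). In LN-labelled libraries Pparg had 696.9 to 777.9 in untreated libraries and 1032 and 1066 at 1 day, a log2 fold change of 0.50 with no overlap. In that contrast, which chose the set, 3 of the 12 genes lay above all untreated libraries and 2 below, beside 17.1% and 15.5% of all genes. Nothing is read from these counts.

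Genes of fatty acid catabolism rose at 1 day in S-labelled libraries in 15 of the 31 tested, beside 8.56% of all genes called higher. The list's median log2 fold change was 0.58, against 0.01 for all genes. In the same contrast the median was 1.01 over 8 adipocyte markers, 1 of them called higher, and 0.99 over 5 markers of brown adipocytes, 0 of them called by limma, with an unadjusted p under 0.05 for 2 of the 5 and 0 called by edgeR or DESeq2. Acaa1b, a peroxisomal thiolase, rose by 1.20 ± 0.40 (SE, adjusted p = 0.0434, limma), and Etfa, which passes electrons from fat oxidation, by 0.71 ± 0.16 (SE, adjusted p = 0.00471). With 1 library left out the call of Acaa1b was lost in 5 of 10 fits and that of Etfa in 0. Acadm, which starts the breakdown of medium chains, was at 0.46 (adjusted p = 0.223). With the adipocyte score as a covariate, 12 of the 31 were called higher and 1 lower, beside 2248 and 1646 of 18243 genes. The list's median was 0.23 in that fit. Without replicate 2 at 1 day, whose adipocyte sum was 361606, 8 were called higher. Fits without 1 library called 2278 to 2886 of all genes in either direction.

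From 1 to 14 days in S-labelled libraries, 5 of these 31 genes fell, beside 5.41% of all genes. DESeq2 called 7, the adipocyte covariate 8 lower and library weights 3, beside 12.4%, 17.3% and 13.9% of all genes in either direction. The 5 were Acaa1b by 1.30 on the log2 scale (limma, adjusted p = 0.0402), Etfa by 0.62 (adjusted p = 0.0162), and Acaa1a, Acaa2 and Aldh3a2, named after their values were seen. Those calls were lost in 6 of 10 fits without 1 library for Acaa1b and for Acaa2, in 5 for Aldh3a2, in 1 for Etfa (without replicate 1 at 14 days, adjusted p = 0.0507) and in 0 for Acaa1a. At 1 day, Cd36, a fatty acid transporter, and Dgat1, which makes triglyceride, had log2 fold changes of 1.40 ± 0.46 (SE, adjusted p = 0.0415) and 1.27 ± 0.43 (SE, adjusted p = 0.0491). Without 1 library they were lost in 6 and 7 of 10 fits, respectively. With the adipocyte score as a covariate those changes were 0.51 and 0.44. Lpl, the lipase that Angptl4 inhibits, was at 1.28 (adjusted p = 0.0835). In LN-labelled libraries at 3 days, 1 gene of the list was called, Acsl1, which activates long-chain fatty acids, at −0.63 ± 0.11 (SE, adjusted p = 0.00918), beside 0.906% of all genes called lower. Without untreated replicate 2 or 3 it was not called, with an adjusted p of up to 0.0627.

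Of 10 FOXO and insulin-linked genes, 2 rose and 1 fell at 1 day in S-labelled libraries, beside 8.56% and 8.05% of all genes. Foxo4 rose by 0.56 ± 0.11 (SE, adjusted p = 0.00252, limma) and Foxo1 fell by 0.43 (adjusted p = 0.00334), both named after their values were seen, and each kept its call in 10 of 10 fits without 1 library. The other gene that rose, Ccng2, at 0.29 (adjusted p = 0.0367), lost its call in 7 of 10. At 3 days 3 of the list fell, beside 2.74% of all genes. Library weights called 6 and DESeq2 5, beside 25.9% and 9.25% of all genes in either direction. The adipocyte covariate called 2 higher and 3 lower, beside 12.4% in either direction. Among the 3 that fell, Irs2, an insulin receptor substrate, was at −0.50 ± 0.13 (SE, adjusted p = 0.0359, limma) and Foxo3 at −0.43 ± 0.11 (SE, adjusted p = 0.0333). With 1 library left out, the call of Irs2 was lost in 7 of 10 fits, that of Foxo3 in 8 and that of Foxo1, the third gene, in 9. Klf15, a fasting and glucocorticoid induced factor named after its values were seen, had 118 to 169 counts in untreated libraries labelled lymph node and 339 and 361 at 1 day. In that contrast, which chose the set, 3 of the 10 genes lay above all untreated libraries and 0 below, beside 17.1% and 15.5% of all genes. The list's median log2 fold change was −0.001, and nothing is read from these counts. Arrdc4, the closest relative of Txnip in its response to MondoA, had 216 to 263 in untreated libraries and 303 and 318 at 1 day, a log2 fold change of 0.34. Of 8 genes in the list of Txnip relatives and MondoA genes, 2 lay above and 1 below in the same contrast, beside the same shares of all genes. That list's median was −0.033. In the tested comparisons the lowest adjusted p of Arrdc4 was 0.138.

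Glucocorticoid-responsive genes were the list with the highest median change at 1 day in LN-labelled libraries, 0.73, in the contrast that chose the set. Of 12 genes, 8 lay above all untreated libraries at 1 day and 1 below, beside 17.1% and 15.5% of all genes, and nothing is read from these counts. Ddit4, an inhibitor of the mTOR kinase, had 3508 to 5841 counts in untreated libraries and 15430 to 16980 at 1 day. Tsc22d3, which encodes the glucocorticoid-induced leucine zipper, had 9518 to 16810 and 29880 to 33120. Mt2, a metallothionein, was lower, at 569 to 879 against 349 and 364.

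At 14 days in LN-labelled libraries, 2 genes of that list rose and 2 fell by limma, beside 0.11% and 0.681% of all genes. Ddit4 rose by 0.91 ± 0.18 (SE, adjusted p = 0.0233) and Tsc22d3 by 0.83 ± 0.15 (SE, adjusted p = 0.0153), higher in 4 of 4 libraries than in all untreated ones. Neither was called without untreated replicate 1 or without untreated replicate 2, nor Ddit4 without replicate 1 at 14 days, with adjusted p up to 0.171 for Ddit4 and 0.119 for Tsc22d3. Mt2 fell by 1.72 on the log2 scale (adjusted p = 0.0041), and at 3 days it fell by 1.89 (adjusted p = 0.00103). Mt1 fell by 0.61 (adjusted p = 0.00918) at 3 days, when 1 gene of the list rose and 2 fell, beside 0.335% and 0.906% of all genes. The call of Mt1 at 3 days was lost without untreated replicate 2 (adjusted p = 0.0815). Mt1 also fell by 0.59 at 14 days (limma, adjusted p = 0.017), and without the same library that call was lost (adjusted p = 0.139). Erythroid markers were lower in the same libraries, with 8 of 8 called at 3 days (median log2 fold change −3.41) and 2 of 8 at 14 days (median −2.14), and their part in these results was not tested. The change of Mt2 differed between the labels by 2.17 ± 0.32 (SE, adjusted p = 0.00052) at 3 days and 1.79 ± 0.32 (SE, adjusted p = 0.0128) at 14 days, where the call was lost without LN untreated replicate 2 (adjusted p = 0.0731). These comparisons share the untreated libraries with the contrast at 1 day. In S-labelled libraries at 1 day, 1 gene of the list rose and 1 fell, beside 8.56% and 8.05% of all genes, and the list's median log2 fold change was −0.25. Sgk1, a kinase named after its values were seen, fell by 0.35 (adjusted p = 0.0129). Nr3c1, the glucocorticoid receptor, rose by 0.66 ± 0.09 (SE, adjusted p = 0.000409) at 1 day and by 0.46 ± 0.09 (SE, adjusted p = 0.0131) at 3 days. From 1 to 14 days its change was −0.63 (limma, adjusted p = 0.00104), a call lost in 0 of 10 fits without 1 library. The change of Nr3c1 at 3 days differed between the labels by 0.60 ± 0.14 (SE, adjusted p = 0.0396), and that of Txnrd1, a thioredoxin reductase, by 0.34 ± 0.08 (SE, adjusted p = 0.0353). Each of these differences lost its call in 12 of 17 fits without 1 library, with adjusted p up to 0.138 and 0.142.

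**Figure D5:**
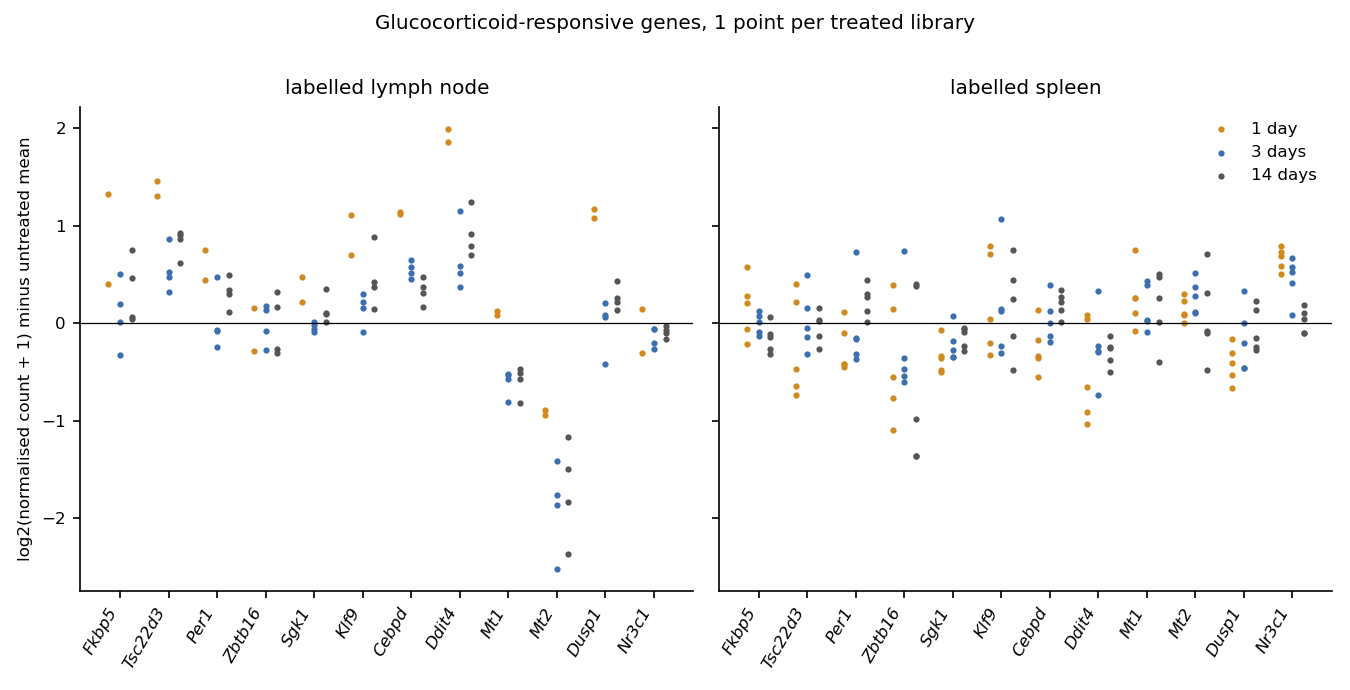
Log2(normalised count + 1) of 12 glucocorticoid-responsive genes in each treated library minus the untreated mean of its label (y axes), with 1 point per library, colored by time on NAM. In LN-labelled libraries the 1 day points of Ddit4 are the highest, and the points of Mt2 lie below 0 at each time.

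Likeness to Pdk4 was described by Pearson's r of log2 levels over the libraries of a label. Over 13 libraries labelled lymph node, Errfi1, a feedback inhibitor of the EGF receptor, had r = 0.98 and Ddit4 0.97, followed by Rasl11b at 0.95, the row of Mir214, Dnm3os and Mir199a-2 at 0.95, and Tmem100 at 0.94. Among the members, Txnip had r = 0.92 and Angptl4 0.74. These values rest in part on the 2 libraries at 1 day, and over the other 11 they were 0.94 for Errfi1, 0.95 for Ddit4, 0.89 for Rasl11b, 0.85 for the Mir214 row, 0.82 for Tmem100, 0.87 for Txnip and 0.67 for Angptl4. Over the 20 libraries labelled spleen, the 5 highest were Slc4a4 at 0.91, Pck1, the rate-limiting enzyme of gluconeogenesis, at 0.86, Angptl4 at 0.85, and Tusc5 and Slc36a2 at 0.83. Txnip was at 0.51 there. Points of a label share depth and, in S-labelled libraries, adipocyte RNA, so no test was made.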

How the data were processed

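RNA of 33 mouse libraries was sequenced in paired-end mode. The values deposited by the authors are a linear signal, namely the reads of each gene over the DESeq2 size factor of the library. The submitters' processing notes name STAR 2.4.0 and the mm10 build. The deposited values were whole multiples of 1 step per library for 100.0% of values (tolerance 0.01), which returned whole reads. Replicate pairs numbered 56, of which 0 were identical.

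Members and gene lists were chosen with earlier results of these data known. Tests were made in R 4.3.3 with limma 3.58.1 on log2(normalised count + 1), two-sided, with an intensity trend, all 4 groups of a label in 1 fit and genes with a mean of at least 10. P-values were adjusted by Benjamini-Hochberg over all genes tested, with a threshold of 0.05. The test was checked on simulated reads. The recovered reads were also tested with DESeq2 1.42.0 and edgeR 4.0.16, among other alternatives. Named were all members, 11 fixed pathway genes (1 of them not reported here), the 3 pathway genes with the largest called change per comparison, and the 5 genes most like Pdk4 per label. Other pathway genes were named after their values were seen. Of the members, Ppara had the fewest reads. Gene positions are from the mm10 annotation. Promoter sequences are from RefSeq.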

Additional observations from a re-analysis of the deposited data

Results flagged for a closer look

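In all, 4 values lay apart from the rest of their group, in 54 sets of 4 or 5 values searched, where chance gives about 1 in 20. Acot1 had 483 normalised counts in replicate 4 at 3 days in LN-labelled libraries, against 352 to 366 in the other 3 libraries. Acot1 had 775 in replicate 2 at 1 day in S-labelled libraries, against 224 to 329, and that library also had the highest adipocyte marker sum, 361606. Txnip had 10138 in replicate 1 at 3 days in S-labelled libraries, against 6804 to 7162. Ppara had 15.9 in replicate 2 at 3 days in LN-labelled libraries, against 29.2 to 31.9.

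The change of Txnip at 1 day had opposite signs under the labels, −0.28 in S-labelled libraries and 0.79 in LN-labelled libraries, a difference of −1.07 (S minus LN) on the log2 scale, with every treated library on its side of the untreated mean. The change of Acot2 at 3 days was 0.17 and −0.11, a difference of 0.28, with the same property. The difference at 1 day for Txnip was not tested, since the lymph node value chose the set. For Acot2 at 3 days the test gave an adjusted p of 0.483 (limma).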

How the results depend on the processing

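The log2 fold change of Pdk4 described at 1 day in LN-labelled libraries was 2.82 to 2.83 with other pseudocounts, filters and scalings, and 2.56 to 3.21 with 1 library left out. Against 0 members called, the library weights called 2 (Angptl4, Txnip) at 3 days in S-labelled libraries, beside 25.9% of all genes, 2 (Txnip, Pdk4) at 14 days in LN-labelled libraries (1.53%) and 1 (Txnip) for the difference at 3 days (11.3%). The adipocyte score as a covariate called the same genes in these (12.4%, 0.664% and 1.32% of all genes), and 1 (Ucp2) at 1 day in S-labelled libraries (21.3%). DESeq2 called 1 in each of 4 comparisons. The rule of a 1.5-fold change at an unadjusted p up to 0.05 counted 1 in each of 5, Plin2 and Angptl4 at 1 and 3 days with the S label (8.21% and 3.4% of all genes), Pdk4 at 3 and 14 days with the LN label (3.38% and 3.46%), and Txnip for the difference at 3 days (3.73%). With 1 library left out, 0 to 1 members were called in these comparisons.

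The change of Pdk4 at 1 day in S-labelled libraries, 0.05, was −0.17 with library weights, −0.64 with the adipocyte score, −0.20 with a pancreatic score, −0.017 by edgeR and −0.009 by DESeq2, and −0.31 to 0.26 with 1 library left out. At 14 days in LN-labelled libraries it was 1.17 with weights and 1.22 with the adipocyte score, both past the threshold, and 0.75 to 1.40 with 1 library left out. The adipocyte markers summed to 11 to 237 counts in that label, so the score there rests on few reads. The change of Txnip at 14 days in S-labelled libraries was −0.068 to 0.063 with 1 library left out. The causes were not tested. Over all 81 changes, 42 of 1026 values with another setting (the largest reported change among them Ppara at 1.46) and 47 of 864 with 1 library left out had another sign than reported. Of these values 15 and 8 were called, and 0 of them had another sign. With another setting, 8 to 17 fatty acid catabolism genes rose at 1 day, beside 2182 to 3932 of all genes called in either direction, an alternative added after the data were seen. The number of all genes called moved from 1013 to between 140 and 4722 (159 to 2783 with 1 library left out) at 3 days in S-labelled libraries, and from 126 to between 79 and 1944 (33 to 883) for the difference at 3 days. With the LN label it moved from 226 to between 163 and 557 (84 to 302) at 3 days and from 144 to between 55 and 381 (31 to 159) at 14 days, and from 2 to between 1 and 55 (0 to 9) between them. For the difference at 14 days it moved from 24 to between 20 and 42 (4 to 26). Between 14 days and 1 day with the S label it moved from 1940 to between 1434 and 3152 (1214 to 1819).

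With the replicate number as a replicate block, 0 members were called in the 9 comparisons. The labels do not say what the numbers mark. Correlations of same-numbered libraries ran from −0.496 to 0.468 over 46 pairs, and every pair of groups had at least 1 value under 0.1, so the libraries were not treated as paired. Numbers 1 to 4 of the untreated, 1 day and 14 day groups with the S label correlated at 0.108 to 0.468, and number 5 at −0.324 to 0.02. Ppara had the fewest reads, and 2 libraries at 1 day limit every LN comparison with that group.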
